A study of Homo sapiens with 2 samples.

Results

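The genes described here are 10 of the 36601 genes in the deposited count matrix: ATF4, DDIT3, TRIB3, CHAC1, SESN2, ASNS, XBP1, HSPA5, HERPUD1 and PPP1R15A. They were chosen by name, as genes of the ATF4-CHOP axis and of the unfolded protein response, and all 10 were found. They were measured in OVCAR5 cells, a human ovarian carcinoma line that carried a reporter of IFN-gamma sensing. The cells were taken from a pool of 5 tumours grown in NSG-b2m-/- mice, digested, and kept ex vivo for 6 h either unstimulated, with 10 ng/ml TNFa, or with 100 ng/ml IFNy and 10 ng/ml TNFa. The labels list 15 entries, 5 for each of these conditions. The cells were marked with hashtag antibodies, pooled in equal numbers, sorted for CFP, the marker of what the labels call bystander tumour cells, and read in 1 10x Genomics 3' library with 1 hashtag library.

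No label used here ties a hashtag to a condition. Each of the 15 pairs of hashtags is called a hashed sample, and the 3 groups of 5 are inferred: they were set earlier from the expression of the same cells, so the groups are named for what they look like and every p-value below concerns these sets of hashed samples, not the treatments. The unstimulated-like group holds HTO2+HTO5, HTO2+HTO8, HTO3+HTO7, HTO4+HTO7 and HTO4+HTO10. The TNF-like group holds HTO2+HTO6, HTO2+HTO10, HTO3+HTO5, HTO3+HTO8 and HTO4+HTO8. The both-cytokine-like group holds HTO2+HTO7, HTO3+HTO6, HTO3+HTO9, HTO4+HTO6 and HTO4+HTO9. The summed level of 18 IFN-gamma response genes was 4.14 to 6.44 counts per 10000 UMIs (unique molecular identifiers, 1 for each RNA molecule captured) in the first group, 6.08 to 13.0 in the second and 180 to 275 in the third. That of 18 NF-kB response genes was 7.29 to 11.4, 59.6 to 91.3 and 97.2 to 117. None of the 10 genes is on either list. All hashed samples come from 1 library and nothing says which share a tumour, so the spread between them may be partly technical.

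The integrated stress response is a switch in protein synthesis. Kinases that sense endoplasmic reticulum (ER) stress, amino acid shortage, double-stranded RNA or low heme phosphorylate the initiation factor eIF2, which lowers general translation while the mRNA of the transcription factor ATF4 is translated more. ATF4 raises genes of amino acid supply, such as ASNS, and of stress signalling, such as DDIT3, which encodes the transcription factor CHOP, TRIB3, CHAC1 and SESN2; PPP1R15A encodes GADD34, which brings a phosphatase to eIF2 and so reverses the switch. The unfolded protein response has that arm and a further pair: the sensor IRE1 (gene ERN1) splices XBP1 mRNA, and ATF6 is cut to give a transcription factor. Their best known targets are HSPA5, the ER chaperone BiP, and HERPUD1, a membrane protein of ER-associated degradation. Counts of 3' ends see neither the splicing of XBP1 nor the translation of ATF4, only the amount of mRNA.

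Binding letters for these factors lie upstream of several of the genes. The 3 stretches shown, of XBP1, HSPA5 and HERPUD1, were picked because they match 1 of the 2 ER stress elements defined below. Their matches therefore say nothing about which genes differed between the groups. The sequences are from RefSeq (GRCh38.p14), 5' to 3' on the gene's own strand, with matches in capitals. XBP1 is on the minus strand, and the stretch is chr22:28800598-28800819, from position -250 to -29 relative to the RefSeq start of transcription. It holds the ER stress response element (ERSE, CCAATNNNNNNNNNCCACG) with its first base at -52.
XBP1: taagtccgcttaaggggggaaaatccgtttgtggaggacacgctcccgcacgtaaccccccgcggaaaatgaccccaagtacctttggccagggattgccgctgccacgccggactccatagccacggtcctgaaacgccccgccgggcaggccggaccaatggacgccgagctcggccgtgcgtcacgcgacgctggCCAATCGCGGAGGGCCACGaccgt
HSPA5 is also on the minus strand (chr9:125241344-125241593, positions -250 to -1), with an ERSE whose first base is at -66.
HSPA5: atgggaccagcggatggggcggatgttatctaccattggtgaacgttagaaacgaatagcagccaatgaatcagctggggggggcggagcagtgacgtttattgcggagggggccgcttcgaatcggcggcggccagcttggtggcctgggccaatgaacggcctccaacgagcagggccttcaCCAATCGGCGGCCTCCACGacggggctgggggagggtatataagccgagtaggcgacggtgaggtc
HERPUD1 is on the plus strand (chr16:56931892-56932047, positions -250 to -95). The first capitals, at -176, are the reverse complement of the core of the C/EBP-ATF response element that ATF4 binds (CARE core, TGATGNAA), and the second, at -117, are the form of the element called ERSE-II (ATTGG, any 1 base, then CCACG).
HERPUD1: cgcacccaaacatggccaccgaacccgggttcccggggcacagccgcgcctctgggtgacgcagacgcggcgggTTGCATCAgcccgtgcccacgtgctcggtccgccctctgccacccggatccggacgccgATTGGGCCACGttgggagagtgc

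Windows of 300 bases (250 before to 50 after a start) were found for 10 of the 10 genes, 16 windows in all, and were searched on both strands. The CARE core matched in 3 genes: HERPUD1, CHAC1 (TGATGCAA on the minus strand, at -209) and ASNS (TGATGAAA, at -68). It matched in 3.62% of the 35116 windows of all genes. ERSE matched in XBP1 and HSPA5 and in 0.0769% of all windows, and ERSE-II in HERPUD1 and in 0.0541%. The core of the unfolded protein response element (UPRE core, TGACGTG), present in 1.97% of all windows, matched in 0 of the 10 genes, which says only that these letters are not in these windows. In GENCODE 29 on GRCh38 the genes are protein coding, with XBP1 at chr22:28794555-28800597, HSPA5 at chr9:125234853-125241330, HERPUD1 at chr16:56932048-56944863, ATF4 at chr22:39519695-39522685, DDIT3 at chr12:57516588-57521737, PPP1R15A at chr19:48872392-48876057, TRIB3 at chr20:362835-397559, CHAC1 at chr15:40952962-40956519, SESN2 at chr1:28259527-28282491 and ASNS at chr7:97852118-97872542.

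Of 5269 barcodes, 3538 cells were kept and 3144 of them (88.9%) carried a clear hashtag pair. The hashed samples held 49 to 630 cells and 582102 to 7324691 UMIs. The 4 smallest were HTO3+HTO5 with 49 cells, HTO3+HTO9 with 53, HTO4+HTO9 with 64 and HTO3+HTO7 with 71. Median UMIs per cell were 10942 to 12405 and median mitochondrial shares 12.2% to 14.7%, and both ranges overlapped between the groups. All 9 epithelial markers were detected, at a summed level of 72.3 to 88.0 per 10000 UMIs in the unstimulated-like samples, 45.1 to 65.7 in the TNF-like and 40.2 to 47.7 in the both-cytokine-like. Epithelial markers therefore moved with the groups, and their part in the results below was not tested. T and NK cell markers summed to at most 0.0110, with CD3D, CD3E, CD2, CD8B, NKG7 and GNLY at 0. Fibroblast, endothelial and B cell markers summed to at most 0.0519, 0.0501 and 0.0161, and myeloid markers to 0.292 to 0.599, most of it CD68.

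XBP1 was the member with the clearest difference between the groups. It rose in each of the 3 comparisons, and PPP1R15A, HERPUD1 and ATF4 rose in the both-cytokine-like against the unstimulated-like samples. HSPA5, DDIT3, TRIB3, CHAC1 and SESN2 did not pass the test in any comparison, and ASNS had too few counts to be tested. The test was edgeR's quasi-likelihood test on counts summed per hashed sample, in 1 fit of all 15, with p-values adjusted over 9636 genes and called under 0.05. In such sums, more cells that hold an mRNA and more of it per cell cannot be told apart.

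TNF-like against unstimulated-like samples gave 1 member called higher of 9 tested (XBP1), where 7.54% of all genes were called higher, and 0 called lower, where 3.66% of all genes were. Both-cytokine-like against TNF-like samples gave 1 higher (XBP1), against 11.1% of all genes, and 0 lower, against 7.45%. Both-cytokine-like against unstimulated-like samples gave 4 higher, against 19.1% of all genes, and 0 lower, against 17.0%. In DESeq2, too, 0 members were lower in any of the 3 comparisons, and 0 were lower at an unadjusted p under 0.05 in edgeR. XBP1 was the 1 member of 9 whose both-cytokine-like levels all lay above its unstimulated-like levels, where 8.63% of all genes had groups that did not overlap in that direction. The median log2 fold change of the 9 members was 0.23, 0.12 and 0.34 in the 3 comparisons in that order, and that of all genes was 0.00, -0.02 and -0.01. These comparisons share groups, so they are not independent of one another.

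The scale matters for these small differences. The fold changes are on the TMM scale, which centres most genes near 0, while the levels printed per sample are counts per 10000 UMIs. Scaled by total counts, the median of all genes moves to -0.08, -0.17 and -0.24 in the 3 comparisons, and of all genes called in both-cytokine-like against unstimulated-like samples 24.5% are higher in place of 52.9%. In the other 2 comparisons that share falls from 67.3% to 51.3% and from 59.9% to 29.3%. On that scale XBP1 and PPP1R15A were still called in both-cytokine-like against unstimulated-like samples, and ATF4 and HERPUD1 were not.

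**Figure D1:**
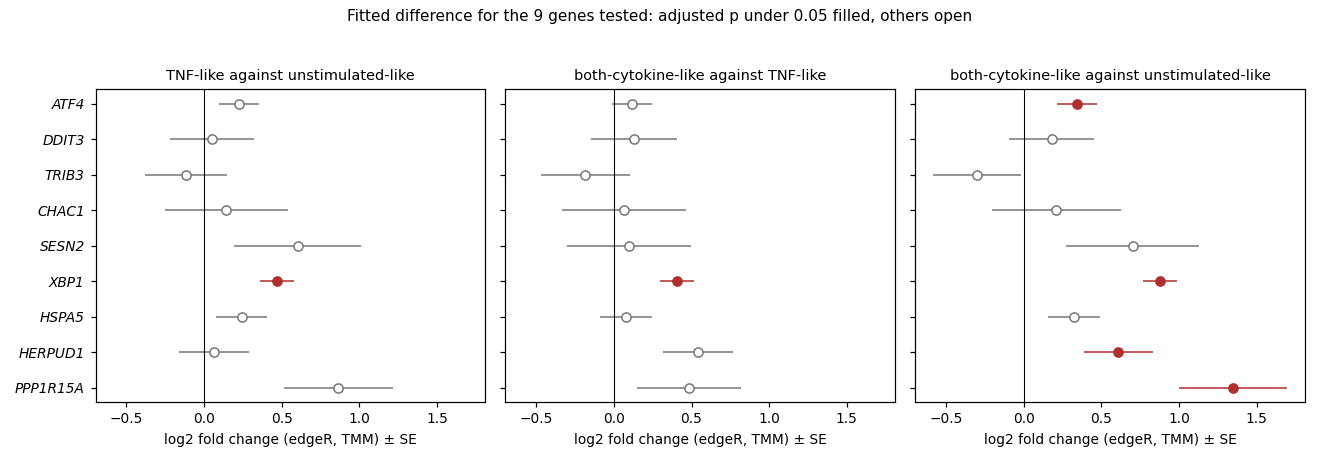
Log2 fold change (horizontal axis, TMM scale) with its standard error for the 9 genes tested, 1 panel for each comparison; filled red points have an adjusted p under 0.05. XBP1 is filled in all 3 panels, at 0.47, 0.41 and 0.88, while ATF4, HERPUD1 and PPP1R15A are filled only in the comparison of both-cytokine-like with unstimulated-like samples.

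XBP1 encodes the transcription factor whose mRNA IRE1 splices. In counts per 10000 UMIs, its level in the unstimulated-like samples was 0.579, 0.629, 0.640, 0.723 and 0.826. In the TNF-like samples it was 0.815, 0.827, 0.881, 0.910 and 1.10. In the both-cytokine-like samples it was 0.940, 0.987, 1.00, 1.15 and 1.20. Every both-cytokine-like sample thus lay above every unstimulated-like sample, while the TNF-like samples overlapped both neighbours: HTO3+HTO7, the highest unstimulated-like sample, lay just above HTO2+HTO6, and HTO3+HTO5, the highest TNF-like sample, lay among the both-cytokine-like ones. The group means were 0.679 ± 0.097, 0.907 ± 0.115 and 1.06 ± 0.113 (SD, n = 5 each).

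XBP1 rose by 0.47 ± 0.11 (log2 fold change ± SE; edgeR adjusted p = 0.00595) in the TNF-like against the unstimulated-like samples and by 0.41 ± 0.11 (edgeR adjusted p = 0.0103) in the both-cytokine-like against the TNF-like samples. Against the unstimulated-like samples the both-cytokine-like samples were higher by 0.88 ± 0.11 (edgeR adjusted p = 1.57e-06), a fold of 1.84 with a range of 1.58 to 2.14 at 2 standard errors. This last call held under all 12 other settings, with log2 fold changes of 0.65 to 0.96, and without any 1 of the 15 samples (0.82 to 0.93). With cells thinned to 5000 UMIs the adjusted p was 0.0577 for the first comparison and 0.174 for the second, and with total counts it was 0.0715 for the second.

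PPP1R15A, the gene of the eIF2 phosphatase subunit GADD34, differed most in size. Its level in the unstimulated-like samples was 0.324, 0.418, 0.611, 0.652 and 1.25. In the TNF-like samples it was 0.599, 0.71, 1.18, 1.51 and 1.52, and in the both-cytokine-like samples 0.703, 0.910, 1.44, 1.80 and 2.12. The groups overlapped, since the unstimulated-like sample HTO3+HTO7 lay above 2 of the both-cytokine-like samples, HTO3+HTO6 and HTO2+HTO7. Between the outer groups PPP1R15A rose by 1.35 ± 0.35 (edgeR adjusted p = 0.00421), a fold of 2.55 with a range of 1.57 to 4.13, and this call held under all 12 other settings and without any 1 sample (adjusted p up to 0.0175). In the TNF-like against the unstimulated-like samples the difference was 0.87 ± 0.35 (edgeR adjusted p = 0.131), called under 3 of 12 other settings and without HTO3+HTO7 (edgeR adjusted p = 0.0250), and in the both-cytokine-like against the TNF-like samples 0.48 ± 0.33 (edgeR adjusted p = 0.372). Among the 6 members with the most counts PPP1R15A also varied most, with a highest to lowest ratio of 6.55 over the 15 samples.

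HERPUD1, of ER-associated degradation, had levels of 0.688, 0.870, 1.07, 1.16 and 1.64 in the unstimulated-like samples. The TNF-like samples gave 0.677, 0.9, 1.11, 1.29 and 1.56, and the both-cytokine-like samples 0.856, 1.34, 1.53, 1.54 and 1.91. In the third group 4 of 5 samples were above 1.3, while HTO3+HTO6 was low. HERPUD1 rose by 0.61 ± 0.22 in the both-cytokine-like against the unstimulated-like samples (edgeR adjusted p = 0.0379), a fold of 1.52 with a range of 1.12 to 2.08. That call was lost in DESeq2 (adjusted p = 0.0902), with total counts (edgeR adjusted p = 0.156) and without any of 8 of the 15 samples (adjusted p up to 0.106). HERPUD1 differed by 0.54 ± 0.22 between the both-cytokine-like and TNF-like samples (edgeR adjusted p = 0.105). That difference was called under 4 of 12 other settings (edgeR adjusted p = 0.0232 at 15% mitochondrial UMIs, 0.0303 thinned, 1.48e-05 with no low-count filter and 0.00129 without cluster 6, described below) and without HTO3+HTO5 (0.0445) or HTO3+HTO6 (0.0241); over the 12 settings its adjusted p reached 0.238. In thinned cells HERPUD1, not XBP1, was the 1 member called there. HERPUD1 differed by 0.07 ± 0.22 between the TNF-like and unstimulated-like samples (edgeR adjusted p = 0.933).

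ATF4 was steadier. Its level was 1.06, 1.45, 1.47, 1.5 and 1.73 in the unstimulated-like samples, 1.25, 1.61, 1.63, 1.68 and 1.85 in the TNF-like samples, and 1.23, 1.41, 1.58, 1.80 and 1.94 in the both-cytokine-like samples. The 3 ranges overlapped over most of their length, and the highest of the 15 levels was 1.82 times the lowest. ATF4 mRNA rose by 0.34 ± 0.13 between the outer groups (edgeR adjusted p = 0.0456), a fold of 1.27 with a range of 1.06 to 1.52. This is the weakest of the 4 calls: it was lost under 7 of 12 other settings (adjusted p 0.00686 to 0.479 over all 12) and without any of 11 of the 15 samples. The other comparisons gave 0.23 ± 0.13 (edgeR adjusted p = 0.328) and 0.12 ± 0.13 (edgeR adjusted p = 0.625).

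HSPA5, the chaperone BiP, did not pass the test. Its level was 6.77, 7.28, 9.12, 9.28 and 11.0 in the unstimulated-like samples, 7.21, 7.79, 10.3, 10.4 and 13.6 in the TNF-like samples, and 6.69, 8.58, 9.28, 9.85 and 12.6 in the both-cytokine-like samples. The groups overlapped widely, and the highest sample of each was 1 of the 4 smallest: HTO3+HTO7, HTO3+HTO5 and HTO3+HTO9. Both-cytokine-like and unstimulated-like samples differed by 0.32 ± 0.17 (edgeR adjusted p = 0.142), a fold of 1.25 with a range of 0.991 to 1.58, and this was called under 3 of 12 other settings (edgeR adjusted p = 0.0472 at 15% mitochondrial UMIs, 0.00113 with no low-count filter and 0.0386 without cluster 6). The other comparisons gave 0.24 ± 0.17 (edgeR adjusted p = 0.449) and 0.08 ± 0.17 (edgeR adjusted p = 0.826).

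DDIT3, the gene of CHOP, did not pass the test either. Its level was 0.427, 0.448, 0.756, 0.891 and 1.01 in the unstimulated-like samples, 0.394, 0.412, 0.781, 0.783 and 1.44 in the TNF-like samples, and 0.588, 0.612, 0.721, 0.729 and 0.755 in the both-cytokine-like samples. The same 3 small samples again led their groups, and the both-cytokine-like samples lay inside the ranges of the others. DDIT3 differed by 0.18 ± 0.27 between the outer groups (edgeR adjusted p = 0.653), a fold of 1.13 with a range of 0.776 to 1.65. The other comparisons gave 0.05 ± 0.27 (edgeR adjusted p = 0.968) and 0.13 ± 0.28 (edgeR adjusted p = 0.832).

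The downstream genes TRIB3, CHAC1, SESN2 and ASNS were rare. TRIB3, a pseudokinase, ranged from 0.0697 to 0.331 over the 15 samples, with the lowest level in HTO4+HTO6 and the highest in HTO3+HTO7. CHAC1, an enzyme that degrades glutathione, ranged from 0.0215 to 0.129 on 4 to 40 counts a sample, and SESN2, a sestrin, from 0.0237 to 0.165 on 4 to 46 counts. ASNS, asparagine synthetase, had 43 counts in all hashed samples together, 1 to 7 in each, and was not tested. TRIB3 was the 1 tested member with log2 fold changes below 0 in all 3 comparisons (-0.11, -0.19 and -0.30, with edgeR adjusted p = 0.882, 0.746 and 0.438). SESN2 differed between the outer groups by 0.70 ± 0.43 (edgeR adjusted p = 0.216), a fold of 1.63 with a range of 0.896 to 2.95. CHAC1 differed by 0.21 ± 0.41 there (edgeR adjusted p = 0.738).

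**Figure D2:**
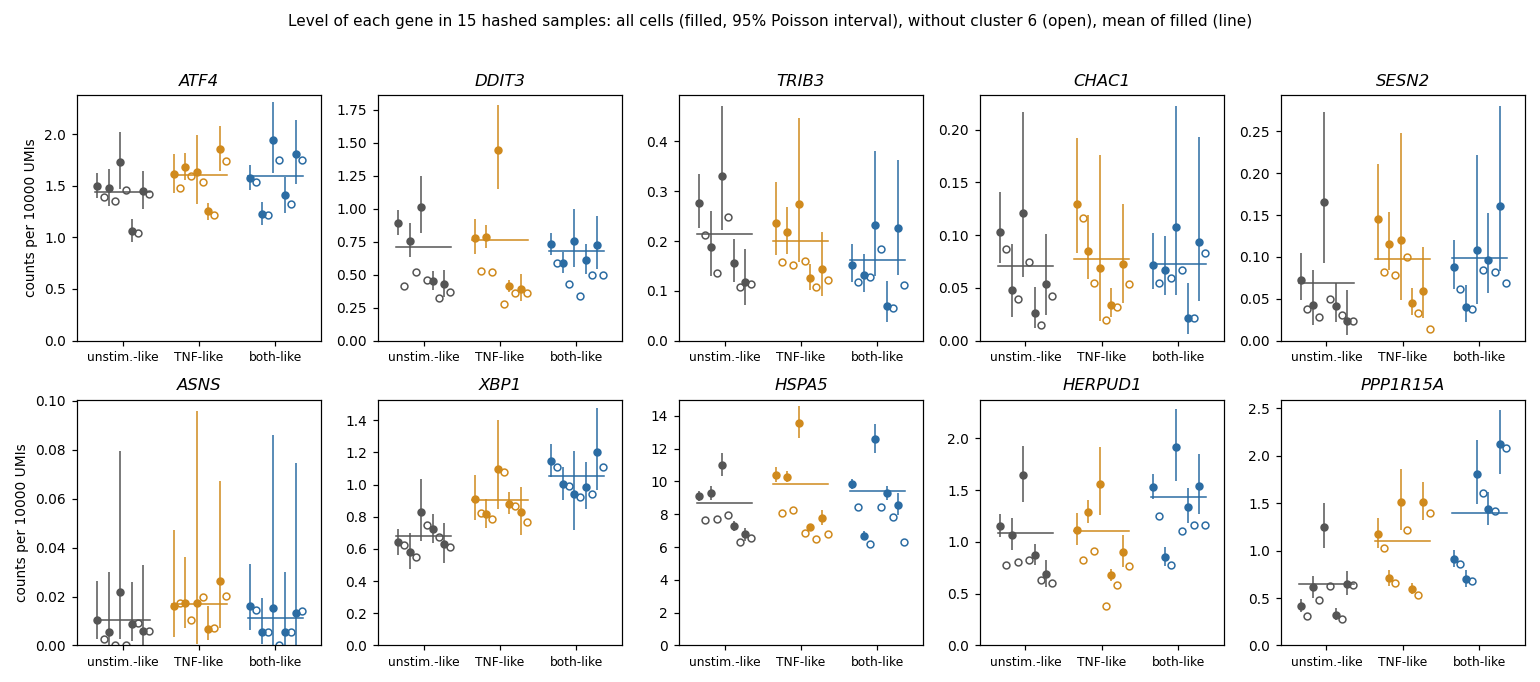
Level of each of the 10 genes (vertical axis, counts per 10000 UMIs, a separate scale for each gene) in the 15 hashed samples, grouped by inferred group; filled points with 95% exact Poisson intervals are all cells, open points leave out the cells of cluster 6 described below, and lines are group means of the filled points. XBP1 is the gene whose both-cytokine-like samples (0.940 to 1.20) all lie above the unstimulated-like samples (0.579 to 0.826), and in HSPA5 and DDIT3 the highest filled points fall back toward the others once those cells are left out.

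In the order of the 15 levels, few neighbours could be told apart by counting error. Of the 14 pairs of neighbours, 3 had separate 95% Poisson intervals for PPP1R15A, 1 for HSPA5 and 0 for each of the other 8 genes. The intervals cover counting error only.

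Around the members, the genes of 5 pathway lists were counted in the same fit, with list names taken from textbook roles and all log2 fold changes on the TMM scale. Of 14 genes of the stress sensors and of eIF2, 2 rose and 1 fell in the TNF-like against the unstimulated-like samples, 0 rose and 1 fell in the both-cytokine-like against the TNF-like, and 3 rose and 3 fell between the outer groups. Of all genes, 7.54% rose and 3.66% fell in the first of these comparisons, 11.1% and 7.45% in the second, and 19.1% and 17.0% in the last. ERN1, which encodes IRE1, rose by 1.38 (edgeR adjusted p = 9.84e-06) in the first and by 1.14 (edgeR adjusted p = 6.16e-05) in the last of these. PPP1R15B, the constitutively expressed paralogue of PPP1R15A, rose by 0.76 (edgeR adjusted p = 0.000683) and 0.61 (edgeR adjusted p = 0.00221). EIF2AK4, the kinase GCN2 that senses amino acid shortage, fell by 0.54 (edgeR adjusted p = 0.00191) and by 0.82 (edgeR adjusted p = 1.11e-05). EIF2B4, of the exchange factor of eIF2, fell by 0.50 in the both-cytokine-like against the TNF-like samples (edgeR adjusted p = 0.0401). The list's median between the outer groups was -0.09, beside -0.01 for all genes, and with total counts 2 rose and 6 fell, where 1157 of all 9636 genes were called higher and 3556 (36.9%) lower.

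The amino acid genes of ATF4 were called in both directions between the outer groups. Of 28 tested of 33, 2 rose and 0 fell in the TNF-like against the unstimulated-like samples, 3 rose and 1 fell in the both-cytokine-like against the TNF-like, and 4 rose and 4 fell between the outer groups, with a median of -0.08. Of all genes, 7.54% rose and 3.66% fell in the first comparison, 11.1% and 7.45% in the second, and 19.1% and 17.0% in the third. As shares of the 28, the list's counts were near or below these. WARS, the tryptophan tRNA synthetase and a known IFN-gamma target, rose by 4.36 (edgeR adjusted p = 3.44e-16) between both-cytokine-like and TNF-like samples. Its level was 0.515 to 0.813 in the TNF-like samples and 11.0 to 14.7 in the both-cytokine-like samples, without overlap. Of all genes, 5.74% were higher without overlap in that comparison. The groups were set from the expression of the same cells, so the separation of an IFN-gamma target is a description only. CARS, the cysteine tRNA synthetase, rose by 0.34 (edgeR adjusted p = 0.0188), 0.44 (edgeR adjusted p = 0.00164) and 0.78 (edgeR adjusted p = 9.22e-07) in the 3 comparisons. MTHFD2, of mitochondrial folate metabolism, rose by 0.66 (edgeR adjusted p = 0.00357) between the outer groups, while IARS, the isoleucine tRNA synthetase, fell by 0.54 (edgeR adjusted p = 0.00154), SLC1A5, a glutamine carrier, by 0.53 (edgeR adjusted p = 0.00251) and PSPH, of serine synthesis, by 0.79 (edgeR adjusted p = 0.00335). With total counts the split was 3 higher and 13 lower, where 1157 of all 9636 genes were called higher and 3556 (36.9%) lower.

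Other targets of ATF4 and CHOP, 14 tested of 20, gave 4 higher and 1 lower, 3 higher and 1 lower, and 5 higher and 2 lower in the same order. Of all genes, 7.54% were higher and 3.66% lower in the first comparison, 11.1% and 7.45% in the second, and 19.1% and 17.0% in the third. BBC3, which encodes the cell death protein PUMA, rose by 2.96 (edgeR adjusted p = 9.12e-08), 2.09 (edgeR adjusted p = 5.03e-09) and 5.05 (edgeR adjusted p = 2.54e-13). CEBPB, a transcription factor that NF-kB signalling also induces, rose by 0.94 (edgeR adjusted p = 0.000489), 0.83 (edgeR adjusted p = 0.000463) and 1.77 (edgeR adjusted p = 1.90e-08). TNFRSF10B, a receptor of the death ligand TRAIL, rose by 1.10 (edgeR adjusted p = 5.87e-06) and 1.23 (edgeR adjusted p = 3.52e-07) against the unstimulated-like samples, and ATF3 rose by 2.65 (edgeR adjusted p = 8.73e-07) in the both-cytokine-like against the TNF-like samples. GDF15, a secreted stress protein, fell by 1.00 (edgeR adjusted p = 0.00232), 1.21 (edgeR adjusted p = 0.00272) and 2.21 (edgeR adjusted p = 4.57e-07). Between the outer groups the median was 0.18, and with total counts it was -0.05, with 5 higher and 4 lower.

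Some genes of ER folding and degradation rose slightly on the TMM scale, and nearly all of these calls were lost with total counts. Of 19 ER chaperone and folding genes, 0, 1 and 6 rose in the 3 comparisons, where 7.54%, 11.1% and 19.1% of all genes rose. The median between the outer groups was 0.22, beside -0.01 for all genes. PDIA3, a disulfide isomerase, rose by 0.30 (edgeR adjusted p = 0.00260), PDIA6 by 0.26 (edgeR adjusted p = 0.00594) and the prolyl isomerase PPIB by 0.22 (edgeR adjusted p = 0.00893). Of 19 tested of 20 genes of ER-associated degradation and translocation, 0, 2 and 8 rose, with a median of 0.20 between the outer groups. EDEM2, which trims mannose from misfolded glycoproteins, rose by 0.64 (edgeR adjusted p = 0.00107), SELENOK by 0.43 (edgeR adjusted p = 0.00270) and SRP54, of the signal recognition particle, by 0.40 (edgeR adjusted p = 0.000281). With total counts 0 of the 19 folding genes rose and 0 fell between the outer groups, and of the degradation genes 1 rose and 1 fell. The list medians were then 0.00 and -0.03, beside -0.24 for all genes. On that scale 1157 of all 9636 genes were called higher and 3556 (36.9%) lower. The medians of both lists thus lay above that of all genes on either scale, though few of their genes were called with total counts. Between the outer groups on the TMM scale, the heat shock list had 0 of 10 called higher and 1 called lower (DNAJB1, -0.42, edgeR adjusted p = 0.0142). Of 12 G2/M genes 3 fell, among them TOP2A by 0.84 (edgeR adjusted p = 0.0208), where 17.0% of all genes fell. With total counts 5 of 10 heat shock and 6 of 12 G2/M genes fell, where 36.9% of all genes did. The part of these lists in the member results was not tested.

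The members were high together in a small set of cells. Clustering the 3538 kept cells, without the members and the lists among the clustering genes, gave 6 clusters. Cluster 6 held 131 cells. Of these, 121 carried a hashtag pair and came from 15 of 15 hashed samples, and levels in the cluster are over all 131. The summed level of the 10 genes was 68.5 counts per 10000 UMIs in it and 11.7 in all other kept cells. Its cells had a median of 11094 UMIs and 12.1% mitochondrial UMIs, close to 11555 and 13.1% for all kept cells. Cluster 6 was picked as the cluster with the highest summed member level, so its values are a description, with no test of the cluster against other cells.

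All 10 members were at least 1.5-fold higher in cluster 6, where 10.4% of 9427 genes were at least 1.5-fold higher and 20.2% at least 1.5-fold lower; since the members chose the cluster, nothing is read from that count. What varies is the size. SESN2 was at 0.712 in the cluster and 0.0532 elsewhere (13.4-fold) and DDIT3 at 5.86 and 0.446 (13.1-fold). ASNS, on 13 counts in the cluster, was at 0.0866 and 0.00890 (9.72-fold), HERPUD1 at 7.70 and 0.844 (9.12-fold), TRIB3 at 1.25 and 0.141 (8.91-fold) and CHAC1 at 0.426 and 0.0520 (8.19-fold). HSPA5 was at 44.3 and 7.29 (6.09-fold) and PPP1R15A at 3.23 and 0.707 (4.57-fold). ATF4, at 3.26 and 1.38 (2.36-fold), and XBP1, at 1.68 and 0.830 (2.02-fold), differed least. Put as shares, these 131 cells held 32.0% of all SESN2 counts, 31.6% of DDIT3 counts and 24.3% of HERPUD1 counts, but 6.64% of XBP1 counts.

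Among genes with counts in at least 25% of its cells, those with the highest ratios in cluster 6 were HSPA1B (21.1) and HSPA1A (19.3), inducible heat shock genes so alike in sequence that counts of either are uncertain, followed by HMOX1 (13.6), heme oxygenase, then SESN2, DDIT3, the transcription regulator CITED2 (11.1) and DNAJB9 (10.6), an ER co-chaperone. Of the lists, 19 of 19 ER chaperone and folding genes were at least 1.5-fold higher, among them DNAJB9, SDF2L1 (5.28), HYOU1 (5.02) and HSP90B1 (4.56). So were 13 of 19 degradation genes (SEC24D 5.67, SELENOK 4.18, SYVN1 3.79, SEL1L 3.51) and 23 of 28 amino acid genes (PSAT1 8.20, SLC7A11 4.42, GPT2 3.94, MTHFD2 3.25). Among other ATF4 and CHOP targets, 8 of 16 were higher and 2 lower, with ATF3 at 6.96, STC2 at 4.91, KLHL24 at 4.42 and GDF15 at 3.65. Of the 14 sensor genes 2 were higher, EIF2AK3 (5.68), which encodes PERK, the ER kinase of eIF2, and ATF6 (1.57). WARS, by contrast, had a ratio of 1.03.

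Other lists moved with cluster 6 as well. Heat shock genes were higher in 6 of 10, G2/M genes lower in 12 of 12 (median ratio 0.0802), IFN-gamma genes lower in 13 of 17 and NF-kB genes lower in 11 of 17 with 1 higher, while the median ratio of all genes was 0.913. Hypoxia genes were higher in 4 of 14 and lower in 4. Of the epithelial markers 1 of 8 was higher and 0 were lower, with a median ratio of 0.856. The part of these differences in the member levels was not tested.

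**Figure D3:**
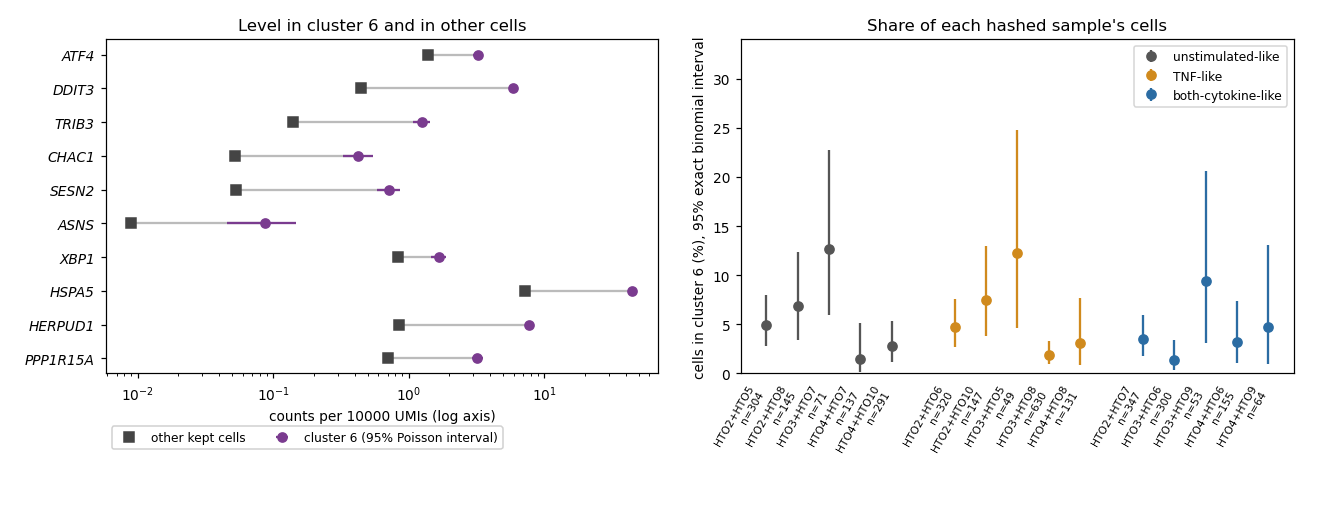
Left, level of each of the 10 genes (horizontal log axis, counts per 10000 UMIs) in cluster 6 (circles, with 95% Poisson intervals) and in all other kept cells (squares); right, percentage of each hashed sample's cells that fall in cluster 6, with exact 95% binomial intervals and cell numbers. Every gene is higher in cluster 6, from 2.02-fold for XBP1 to 13.4-fold for SESN2, and the shares run from 1.33% to 12.7% with wide intervals in the small samples.

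Cells of cluster 6 were found in every hashed sample and every group. They made up 44 of 948 unstimulated-like, 48 of 1277 TNF-like and 29 of 919 both-cytokine-like cells, with median shares per sample of 4.93%, 4.69% and 3.46% and ranges of 1.46% to 12.7%, 1.90% to 12.2% and 1.33% to 9.43% that overlapped almost throughout. The highest shares were in HTO3+HTO7 (12.7%, exact 95% binomial interval 5.96% to 22.7%), HTO3+HTO5 (12.2%, 4.63% to 24.8%) and HTO3+HTO9 (9.43%, 3.13% to 20.7%), which are 3 of the 4 samples with fewest cells. The lowest was in HTO3+HTO6 (1.33%, 0.364% to 3.38%). Within cluster 6, the unstimulated-like, TNF-like and both-cytokine-like cells had XBP1 at 1.45, 1.74 and 2.31 and HSPA5 at 38.4, 48.1 and 60.3. DDIT3 was at 7.17, 5.08 and 6.95 there, and HERPUD1 at 8.25, 7.01 and 10.5, values from 29 to 48 cells a group. PPP1R15A, at 3.32, 3.22 and 2.90, and TRIB3, at 1.39, 1.28 and 1.15, went the other way from XBP1. ASNS was at 0.122, 0.0703 and 0.0699, but with 13 counts in all of cluster 6 no direction is read from it. ATF4 was at 3.44, 3.36 and 3.56, SESN2 at 0.652, 0.826 and 0.873 and CHAC1 at 0.428, 0.439 and 0.524. These differences within the cluster were not tested.

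Leaving these cells out changed the spread between samples for some members and not for others. The ratio of the highest to the lowest of the 15 levels fell from 2.03 to 1.37 for HSPA5 and from 3.66 to 2.11 for DDIT3, while it was 2.08 and 2.01 for XBP1, 1.82 and 1.68 for ATF4, 2.82 and 3.29 for HERPUD1, and 6.55 and 7.58 for PPP1R15A. In HTO3+HTO5, the smallest sample, 6 of 49 cells were in cluster 6, and without them HSPA5 went from 13.6 to 6.83, HERPUD1 from 1.56 to 0.379 and DDIT3 from 1.44 to 0.280. The high DDIT3 and HSPA5 levels of that sample thus rest on 6 cells.

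Leaving out cluster 6 selects cells by the levels of these same genes, and it removes their upper tail. The standard errors of HSPA5 and DDIT3 between the outer groups went from 0.17 to 0.10 and from 0.27 to 0.16, so calls that appear only in this fit are values under an alternative and are not counted as differences between the groups. The log2 fold changes between the outer groups were 0.91 for XBP1, 1.73 for PPP1R15A, 0.81 for HERPUD1 and 0.38 for ATF4, each above its value with all cells (0.88, 1.35, 0.61 and 0.34). DDIT3 went from 0.18 to 0.48 and SESN2 from 0.70 to 1.10, while HSPA5 went from 0.32 to 0.26.

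Across single cells some members varied together. In 2928 cells thinned to 5000 UMIs and centred on their hashed sample, the 45 pairs of members had Pearson correlations of -0.01 to 0.51, with a median of 0.13, and 29 pairs reached 0.1. The highest values were among DDIT3, HERPUD1 and HSPA5. DDIT3 and HERPUD1 correlated at 0.51, HSPA5 and HERPUD1 at 0.49 and DDIT3 and HSPA5 at 0.41. Without cluster 6 these were 0.37, 0.39 and 0.29. Within single hashed samples they ranged from 0.253 to 0.702, 0.188 to 0.695 and 0.151 to 0.577, above 0 in 15 of 15 samples each. DDIT3 and TRIB3 correlated at 0.32 (0.0613 to 0.729 by sample). XBP1, the member of lowest adjusted p between groups, correlated with HSPA5 at 0.14 (0.0609 to 0.382 by sample). The cells share 1 library, counts of ASNS and CHAC1 are sparse, and no p is attached.

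**Figure D4:**
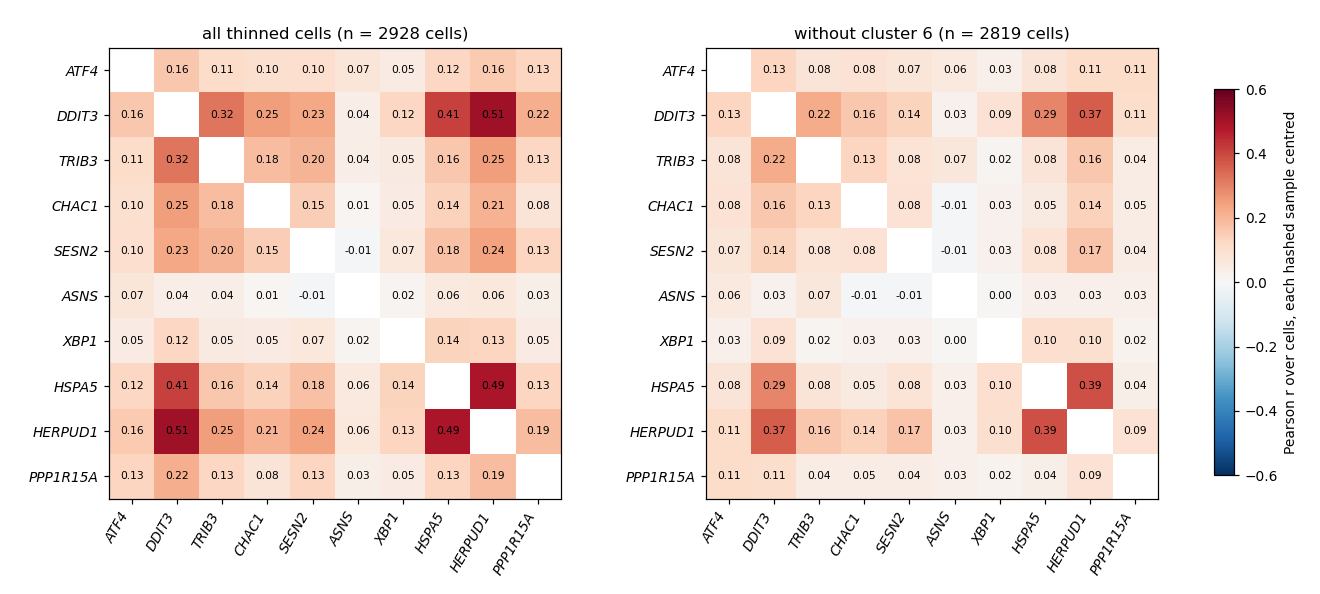
Pearson correlation between each pair of the 10 genes over cells thinned to 5000 UMIs and centred on their hashed sample (colour and printed value), in all 2928 cells and in the 2819 outside cluster 6. DDIT3, HERPUD1 and HSPA5 form the darkest block, at 0.41 to 0.51 on the left and 0.29 to 0.39 on the right.

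Genes other than the members were then ranked by their correlation with each member over the same 2928 cells. For 7 of the 10 members the most alike of these 9418 genes was on the list of ER folding genes. Several members were closer to a fellow member than to any of them. DDIT3 correlated with HERPUD1 at 0.51, TRIB3 and CHAC1 with DDIT3 at 0.32 and 0.25, and SESN2 and PPP1R15A with HERPUD1 at 0.24 and 0.19. Among the non-members, the closest were as follows. HSPA5 was most like HSP90B1 (0.54), SDF2L1 (0.43) and DNAJB9 (0.43), HERPUD1 like DNAJB9 (0.51), SDF2L1 (0.48) and HSP90B1 (0.45), and DDIT3 like DNAJB9 (0.42), SDF2L1 (0.38) and HSP90B1 (0.37). XBP1 was most like SDF2L1 (0.14), DNAJB9 (0.13) and FTH1 (0.11), a ferritin chain. TRIB3 had DNAJB9 (0.20), MTHFD2 (0.19) and SDF2L1 (0.19), SESN2 had DNAJB9 (0.19), MTHFD2 (0.18) and HSP90B1 (0.18), and CHAC1 had DNAJB9 (0.17), SDF2L1 (0.16) and PSAT1 (0.15). ATF4 was most like the translation factor EIF5 (0.17), SELENOS (0.16) and MTHFD2 (0.16). PPP1R15A was most like DUSP1 (0.17), HBEGF (0.17) and FOSL1 (0.17), a phosphatase, a growth factor and a transcription factor of early responses to stimuli. ASNS, with few counts, had DUSP10 (0.13), MXD1 (0.11) and REPS1 (0.11). Values under 0.2 in counts this sparse are given as description only.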

How the data were processed

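The deposited files are raw UMI counts per gene and per hashtag, as whole-number counts for each barcode, per the file headers and values; the matrix header names Cell Ranger 5.0.1, while version 2.1.1 and the build GRCh38 appear in the submitters' processing notes. The alignment settings and annotation are not given in the sources used here. The column of per-cell counts was mapped for the whole pool, and 0 other per-sample columns were set aside.

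Cells with at least 1000 genes and at most 20% mitochondrial UMIs were kept. Each cell's 2 strongest hashtags made its pair, provided that the weaker of them reached 10 counts and 3 times the next hashtag; 394 kept cells failed this. No doublet caller was run; a cell with another strong hashtag was left unpaired, and 2 cells of 1 hashed sample in a droplet would go unseen. The members, gene lists, pair rule and inferred groups were chosen with earlier results of these data known. Levels are counts per 10000 UMIs of all the cells of a hashed sample.

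Counts summed per hashed sample were fitted with edgeR 4.0.16 (R 4.3.3; TMM, filterByExpr, quasi-likelihood test, Benjamini-Hochberg), over 15 hashed samples with no covariate; the procedure was tested on simulated data. DESeq2 1.42.0 was an alternative. Clusters (scanpy 1.11.5; 2000 variable genes, 30 components, 15 neighbours, Leiden resolution 0.5) left out 190 genes of the members and lists. Ratios in a cluster are over genes with a level of at least 0.05. Correlations used log2(count per 10000 UMIs + 1) in cells thinned to 5000 UMIs, which left out 269 shallower kept cells. All 10 members are named. Of each list, at most the 3 called genes of lowest adjusted p in each direction are named in each comparison. The 4 highest ratios in cluster 6 and the 7 genes of highest ratio are also named, chosen after their values were seen. For each member the 3 most correlated genes that are not members are named. Interval ranges of a fold are 2 standard errors either side. Alternatives were other scalings, no low-count filter, stricter and looser cell and pair filters, thinning, leaving out each sample, the 4 smallest samples or cluster 6, a block on the first hashtag (added after seeing the data), and 2 other clusterings.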

Additional observations from a re-analysis of the deposited data

Results flagged for a closer look

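Cells outside the comparisons also held the members' mRNA. The 394 kept cells without a clear hashtag pair had a summed level of the 10 genes of 12.9 counts per 10000 UMIs, beside 13.8 in the 3144 cells with a pair; XBP1 was at 0.816 and 0.865 and HSPA5 at 7.91 and 8.64. The 1731 removed barcodes, with a median of 4507 UMIs and 29.2% mitochondrial UMIs, had a summed level of 9.58, with HSPA5 at 6.57, DDIT3 at 0.314 and XBP1 at 0.546. These barcodes enter no comparison, and no control sample exists for them. No hashed sample stood apart in its group by Dixon's test among the 36 groups of 5 values looked at.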

How the results depend on the processing

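No paired analysis was possible because no label ties a hashed sample to a tumour or says what a hashtag shared between pairs marks. As an alternative chosen after seeing the data, the first hashtag of the pair (HTO2, HTO3 or HTO4) was made a block: 1, 1 and 3 members were then called higher in the 3 comparisons, with ATF4 lost between the outer groups (edgeR adjusted p = 0.0595). The number of members called higher in TNF-like against unstimulated-like samples was 1, and 0 with thinned cells, 3 with no low-count filter, 2 without the 4 smallest samples and 2 without cluster 6; leaving out 1 sample gave 1 to 2 (2 without HTO3+HTO7). In both-cytokine-like against TNF-like samples it was 1, and 2 at 15% mitochondrial UMIs, 0 with total counts, 3 with no filter and 2 without cluster 6, and in thinned cells 1, HERPUD1 in place of XBP1; leaving out 1 sample gave 1 to 2 (2 without HTO3+HTO5 or HTO3+HTO6). Between the outer groups it was 4, and 2 in DESeq2, 2 with total counts and 7 without cluster 6, a cluster chosen by these genes' own levels; leaving out 1 sample gave 2 to 4, with 2 in 8 of the 15 cases: HTO2+HTO7, HTO3+HTO9, HTO4+HTO6, HTO4+HTO9, HTO2+HTO5, HTO2+HTO8, HTO4+HTO7 and HTO4+HTO10. Members called lower were 0 under all of these. The causes of these shifts were not tested, except that thinning left CHAC1 and SESN2 untested. The highest cluster's summed level was 66.5 at Leiden resolution 1 and 62.2 with the lists kept, and the median correlation 0.198 unthinned and 0.0785 without cluster 6.

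Of 723 results under alternatives, 39 changed sign, none of them a called difference. In TNF-like against unstimulated-like samples DDIT3 was -0.15 thinned, -0.0167 with total counts, -0.0338 without the 4 smallest samples and -0.0664 with the hashtag block, CHAC1 -0.0789 at 15% mitochondrial UMIs and HERPUD1 -0.11 thinned. In both-cytokine-like against TNF-like samples total counts gave ATF4 -0.0397, DDIT3 -0.0319, CHAC1 -0.0976, SESN2 -0.0650 and HSPA5 -0.0671; CHAC1 was -0.0142 in DESeq2 and -0.0716 without the 4 smallest samples, SESN2 -0.0475 without them, and TRIB3 0.14 thinned. Between the outer groups total counts gave DDIT3 -0.0486 and CHAC1 -0.0250. Leaving out 1 sample, ranges that crossed 0 in TNF-like against unstimulated-like samples were DDIT3 -0.18 to 0.23, TRIB3 -0.25 to 0.0725, CHAC1 -0.14 to 0.53 and HERPUD1 -0.0647 to 0.22. In both-cytokine-like against TNF-like samples they were DDIT3 -0.0556 to 0.35, CHAC1 -0.31 to 0.33, SESN2 -0.24 to 0.40 and HSPA5 -0.0260 to 0.24, and between the outer groups CHAC1 -0.0767 to 0.59. Depth limits the rare genes most: ASNS had 43 counts.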
